A study of Mus musculus with 36 samples.

Results

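The transcripts described here are those of 46 lysosomal genes, the hydrolases of the lysosome with their cofactors and a set of its membrane proteins, out of 39017 genes in the count table. They were chosen by name as known lysosomal genes, by a rule that uses no measured value, although earlier results of these data were known when the list was made. The cells were C57BL/6 mouse fibroblasts of the pancreas, grown either alone (mono-culture) or in direct co-culture with tumour cells. Messenger RNA was sequenced from 36 libraries, 4 for each of 9 cultures. The comparisons ask how much the transcript level of each gene in the fibroblasts differed after contact with the tumour cells, and whether that difference varied with the tumour line.

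Co-cultures lasted 48 h, after which the fibroblasts were sorted away from the tumour cells, which carried GFP. Of the 8 tumour lines, 7 are sub-clones named E, H, K, M, N, T and V, and the labels do not explain the name of the remaining line, KPC1. Treatment, passage and the age or sex of the source mice are not given in the labels. Nothing states that the 4 libraries of a group came from separate cultures, so p-values measure the spread between libraries, which may be technical.

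Lysosomes are acidic organelles in which proteins, glycans and lipids delivered by endocytosis and autophagy are broken down. A proton pump, the vacuolar ATPase, keeps their lumen acidic, soluble hydrolases arrive there carrying a mannose-6-phosphate tag, and heavily glycosylated membrane proteins such as LAMP1 and LAMP2 line their membrane. Many lysosomal genes carry a short palindromic motif near their start site that the transcription factor TFEB and its relatives bind, and fibroblasts use lysosomal enzymes to turn over the collagen and proteoglycans they make and take up.

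Library totals ranged from 12532122 to 21985538 counts. All 46 genes passed the filter on low counts and were tested among 14439 genes, and the lowest count of any of them in a library was 8, for Cln3. Fibroblast transcripts were abundant in every library, with 9 fibroblast markers that summed to between 10884 and 32040.1 CPM (a gene's counts relative to the library total, scaled between libraries by TMM). With clones H, T and V and KPC1 the single markers differed in direction. Pdgfra averaged 312 CPM in mono-culture and 97.1 to 149 with these lines, Dcn 317 and 69.2 to 137, and Lum 6.35 and 0.324 to 1.11. Col1a1, Col1a2 and Col3a1 were also lower there, and Pdgfrb, Thy1 and Vim were higher. Of 11 epithelial markers, none averaged over 1 CPM in mono-culture and 4 or 5 did in every co-culture. Their sum was 0.989 to 1.78 CPM in mono-culture and 19.8 to 861 CPM in the co-cultures, with Epcam and Cldn4 at 0 in 24 and 34 of the 36 libraries. The 9 macrophage markers in the table summed to 12.4 ± 0.968 CPM in mono-culture (SD, n = 4), and to means between 7.81 (clone V) and 27.6 CPM (clone T) in the co-cultures. Single markers went in different directions. Mrc1 averaged 0.0275 CPM in mono-culture, 7.81 with clone E and 12.3 with clone T, and Cd14 7.72, 11.9 and 14.5. Lyz2 fell, at 3.32, 0.675 and 0.152 CPM in the same cultures. Csf1r was 0.972, 0.942 and 0.498 CPM there, and Fcer1g 0.286, 0.218 and 0.0694. Ptprc, Aif1 and Tyrobp did not exceed 0.162, 0.0873 and 0.102 CPM in any library. The part of these transcripts in the results was not tested. In sorted bulk samples, fewer cells of a type and less RNA per cell cannot be told apart.

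Transcripts of most lysosomal genes were lower in fibroblasts taken from co-culture than in those grown alone. On the mean of the 7 clonal co-cultures against mono-culture, 31 of the 46 genes were lower, 3 were higher (Cln3, Galns and Lipa) and 12 did not pass the test. Over all genes tested, 24.9% were lower and 24.3% were higher in the same comparison. The median log2 fold change was -0.40 for the lysosomal genes and 0.01 for all genes tested. In 18 of the 46 genes, every one of the 28 clonal libraries lay below every mono-culture library, against 4.34% of all genes, and no lysosomal gene had all 28 above, against 3.67%. Calls are from edgeR's quasi-likelihood test with adjustment over all genes tested.

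The lower transcript levels were found with each of the 8 tumour lines, although lines that changed more of the transcriptome also had a higher background. Clone K changed the fewest genes, and with it 22 lysosomal genes were lower and 1 was higher, where 8.69% and 10.4% of all genes were. With clone M 29 were lower and 2 higher (all genes 10.8% and 12.2%), and with clone E 27 were lower and 2 higher (all genes 15.5% and 16.5%). These 3 lines changed the smallest shares of all genes. With clone N 29 were lower and 3 higher (all genes 19.2% and 19.7%), and with clone T 25 were lower and 4 higher (all genes 24.7% and 25%). With clone H 27 were lower and 3 higher (all genes 26.4% and 27.8%), and with clone V 28 were lower and 5 higher (all genes 28.9% and 29.4%). With KPC1 26 were lower and 6 higher (all genes 28.5% and 30.5%). With each of the 8 lines, the share of lysosomal genes that were lower exceeded that of all genes and the share that were higher fell short of it. Median log2 fold changes of the 46 genes lay between -0.36 (clone T) and -0.51 (KPC1). The 8 comparisons share the same 4 mono-culture libraries and are therefore not independent of each other.

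**Figure D1:**
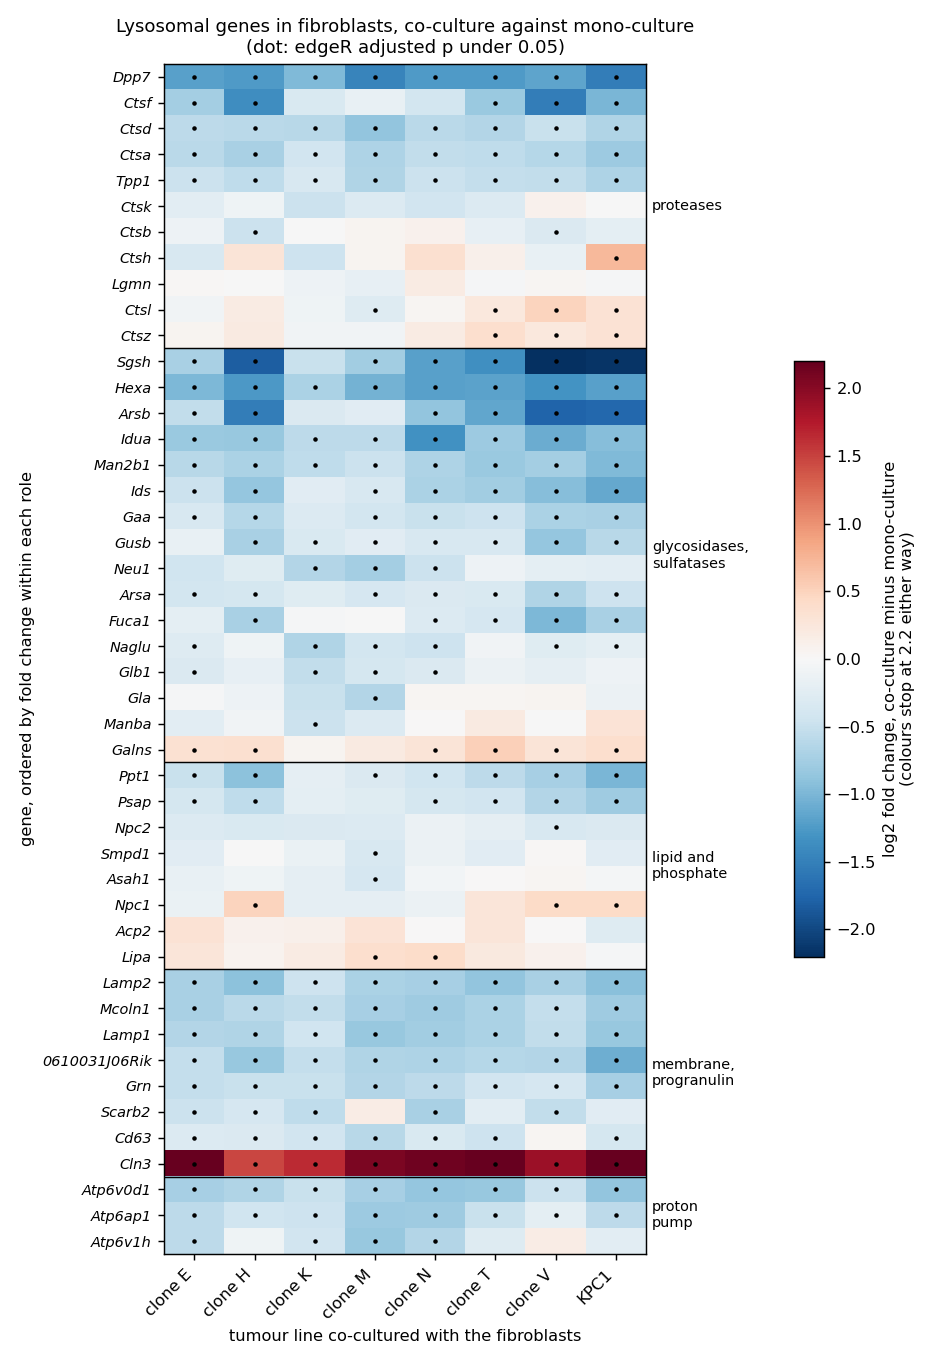
Log2 fold change of each of the 46 lysosomal genes (rows, ordered within their role) in each of the 8 co-cultures (columns) against mono-culture; blue is lower, red is higher, and a dot marks an edgeR adjusted p under 0.05. Most rows are blue across all columns, Dpp7 and Hexa are among the darkest throughout, and Cln3 has the deepest red in all 8 columns.

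Across the 8 lines, 14 genes were lower in every co-culture (all genes tested, 3.19%): Ctsa, Ctsd, Tpp1, Dpp7, Hexa, Idua, Man2b1, Lamp1, Lamp2, Mcoln1, 0610031J06Rik, Grn, Atp6v0d1 and Atp6ap1. A further 22 were lower in 1 to 7 co-cultures and higher in none. Ctsl alone was lower with 1 line and higher with others, Ctsh, Ctsz, Galns, Lipa, Npc1 and Cln3 were higher in at least 1 and lower in none, and Ctsk, Lgmn and Acp2 passed the test in none. Except for the genes lower in every co-culture, shares over all genes were not counted for these classes. Those counts have no background to be read against and only describe the genes.

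Near the start sites of these genes, the motif TCACGTG, an E-box (CACGTG) flanked as in the element that TFEB binds, was read from RefSeq promoters of the mouse assembly GRCm38.p6 (250 bases before to 50 bases after each start site). Promoters were in the table for 40 of the 46 genes. TCACGTG, on either strand, stood in the promoters of 14 of these 40 genes (35%) and of 4.29% of all 27025 genes in the table, and CACGTG, which every TCACGTG contains, in 16 (40%) and 8.09%. On the mean of the clonal co-cultures, 24.9% of all genes were lower and 24.3% higher. Of the 14 genes with TCACGTG, 11 were lower in that comparison, 1 was higher (Cln3) and 2 (Gla and Lgmn) did not pass the test, and their median log2 fold change was -0.53. Among the 26 without it 19 were lower, 1 was higher and 6 did not pass the test, with a median of -0.42. Windows of promoter sequence are shown for 3 genes with a large or uniform decrease (Dpp7, Sgsh and Atp6v0d1), for Mcoln1 and Lamp1 with several copies, for the gene that rose most (Cln3) and for a gene with 2 copies that did not pass the test (Gla). Each is written 5′ to 3′ on the strand of the gene, with 1 match to the motif in capitals.
Dpp7, chr2:25356373-25356432, minus strand: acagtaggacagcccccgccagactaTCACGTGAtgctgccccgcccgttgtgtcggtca
Sgsh, chr11:119355511-119355570, minus strand: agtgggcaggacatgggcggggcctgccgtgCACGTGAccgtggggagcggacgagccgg
Atp6v0d1, chr8:105566050-105566079, minus strand: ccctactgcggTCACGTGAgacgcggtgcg
Mcoln1, chr8:3500447-3500506, plus strand: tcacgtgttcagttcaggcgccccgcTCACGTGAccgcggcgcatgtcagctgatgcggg
Lamp1, chr8:13159101-13159160, plus strand: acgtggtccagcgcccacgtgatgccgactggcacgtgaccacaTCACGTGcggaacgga
Cln3, chr7:126583325-126583384, minus strand: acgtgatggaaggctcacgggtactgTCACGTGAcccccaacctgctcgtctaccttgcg
Gla, chrX:134601196-134601255, minus strand: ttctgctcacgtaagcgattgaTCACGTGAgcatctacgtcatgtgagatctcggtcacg
The capitals of 5 of these windows form the palindrome TCACGTGA, those of Lamp1 read TCACGTG, and those of Sgsh read CACGTGA, which is TCACGTG on the other strand. A match is a stretch of letters and does not show that a factor was bound in these cells.

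Among the 11 proteases, 5 were lower on the mean of the clonal co-cultures (Dpp7, Ctsf, Ctsd, Ctsa and Tpp1), none was higher and 6 did not pass the test. Of all genes, 24.9% were lower and 24.3% higher in this comparison. Dpp7 (chr2:25352276-25356359, minus strand in GRCm38), an exopeptidase that removes dipeptides from the ends of proteins, fell the most. Its CPM in the 4 mono-culture libraries was 122, 105, 94 and 98.5. In co-culture with clone M it was 39.3, 32.7, 32 and 49.9, and with clone K, the line with the highest Dpp7 level in co-culture, it was 46.8, 55.1, 60.9 and 50.5. No co-culture library of any line reached the lowest mono-culture library. The mean of the clones gave -1.22 ± 0.10 as log2 fold change (SE; adjusted p by edgeR, 6.59e-11), and single lines gave -0.98 (clone K) to -1.52 (KPC1). Dpp7 was the most strongly lowered lysosomal gene with clones E, K and M.

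Cathepsin D (Ctsd), the main aspartic protease of the lysosome, averaged 619.8 ± 41.1 CPM (SD, n = 4) in mono-culture and 339 to 442 CPM in the co-cultures (log2 fold change -0.63 on the mean of the clones). Ctsa, a carboxypeptidase that also stabilises the sialidase Neu1, and Tpp1, a tripeptidyl peptidase, had log2 fold changes of -0.59 and -0.51. Part of the annotated exons of Ctsd (34.4%) is shared with another gene model on the same strand, Gm49369, so its counts are uncertain in that respect. The collagen-degrading Ctsk was low throughout, with means of 3.17 to 4.7 CPM in every culture, and did not pass the test with any line.

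The cysteine proteases did not fall together. Cathepsin L (Ctsl, chr13:64359337-64370890, minus strand), an abundant endopeptidase, was 338, 345, 327 and 289 CPM in mono-culture, 242, 241, 291 and 288 with clone M and 489, 401, 452 and 484 with clone V. The clone V libraries all lay above and the clone M libraries overlapped with the mono-culture libraries. Against mono-culture the log2 fold change was -0.29 ± 0.096 (SE) with clone M, 0.23 ± 0.096 with clone T, 0.49 ± 0.096 with clone V and 0.32 ± 0.096 with KPC1, each with an edgeR adjusted p under 0.05 (the largest, 0.0427). The difference among the 7 clones passed the F-test (edgeR adjusted p = 4.75e-07). Exons of Ctsl overlap the antisense gene Gm47123 on the opposite strand over 26.8% of their length. They also overlap a pseudogene on the same strand, Gm49230, over 6.09%, so the counts of Ctsl are uncertain in that respect. Cathepsin Z (Ctsz, chr2:174427493-174439039, minus strand), a carboxypeptidase, had the highest fold change of the proteases on the mean of the clones, 0.12 ± 0.070, and did not pass the test there (edgeR adjusted p = 0.142). It averaged 163 ± 10.9 CPM in fibroblasts grown alone and 211 ± 7.0 CPM with clone T, and was higher with clones T and V and with KPC1. Cathepsin F (Ctsf) went the other way, at 22.4 ± 1.28 CPM in mono-culture, 8.63 ± 2.33 with clone H and 7.79 ± 2.24 with clone V, but 20 ± 3.58 with clone M.

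Of the 16 glycosidases and sulfatases, which strip sugars and sulfate groups from glycans and proteoglycans, 13 were lower, 1 was higher (Galns) and 2 (Gla and Manba) did not pass the test (all genes 24.9% lower and 24.3% higher). The largest decrease was that of Sgsh (chr11:119343425-119355536, minus strand), the sulfamidase of heparan sulfate breakdown. Sgsh was 21, 22.9, 23.7 and 24.8 CPM in mono-culture, 18.1, 20.5, 17.3 and 10.3 with clone K, 2.85, 6.6, 4.03 and 6.82 with clone V and 4.69, 5.07, 5.48 and 5.53 with KPC1. The clone V, clone H and KPC1 libraries lay furthest below the mono-culture libraries, and those of clone K came closest to them without overlap. The mean of the clones gave -1.22 ± 0.16 as log2 fold change (SE; adjusted p by edgeR, 2.65e-07). Single lines gave -2.19 ± 0.25 for clone V, -2.15 ± 0.25 for KPC1, -1.82 ± 0.24 for clone H and -0.49 with clone K, where it did not pass the test (edgeR adjusted p = 0.147). Exons of Sgsh overlap those of Card14 on the opposite strand over 21.6% of their length, and whether counting used strand is not given in the sources used here.

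Arsb (chr13:93771630-93943016, plus strand), the sulfatase that acts on dermatan and chondroitin sulfate, had the same 5 lines at the bottom in the same order (clone V, KPC1 and clones H, T and N). Its CPM was 206, 227, 183 and 223 in mono-culture, 189, 207, 159.8 and 146 with clone M, 40.2, 86, 51.5 and 69 with clone V and 62.5, 63.3, 62.9 and 64.6 with KPC1. The libraries of clone M overlapped with mono-culture and those of clone V, clone H and KPC1 lay far below, so that Arsb had the smallest p of the group in the test among the 7 clones (edgeR adjusted p = 9.08e-10). Against mono-culture its log2 fold change was -1.76 ± 0.16 with clone V and -0.25 ± 0.15 with clone M. Exons of Arsb overlap a long non-coding gene, Gm26527, on the opposite strand over 32.3% of their length.

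Hexa, the alpha subunit of beta-hexosaminidase, was named after its values were seen, being the remaining gene with a decrease past 2-fold. It was 359, 354, 267 and 304 CPM in mono-culture and averaged between 129 (clone V) and 199 CPM (clone K) in the co-cultures, with -1.10 ± 0.097 as log2 fold change (SE; adjusted p by edgeR, 1.27e-10) on the mean of the clones. Idua (chr5:108660331-108684557, plus strand), the iduronidase of heparan and dermatan sulfate breakdown, was the most lowered gene with clone N, at 5.39, 7.04, 5.98 and 6.8 CPM against 17.1, 16, 13.5 and 17.1 in mono-culture. The groups did not overlap, and clone N gave -1.34 ± 0.13 as log2 fold change (SE; adjusted p by edgeR, 2.81e-09). Ids, which removes the sulfate ahead of Idua, was 201 ± 12 CPM without tumour cells and 91.8 ± 6.54 CPM with KPC1 (log2 fold change -1.13). Gaa, which breaks down glycogen, and Man2b1, a mannosidase, had log2 fold changes of -0.48 and -0.65 on the mean of the clones. Galns (chr8:122578242-122611463, minus strand), a sulfatase of keratan and chondroitin sulfate, was the one gene of the group that rose. It was 33.3, 36, 37.1 and 35.8 CPM in mono-culture and 46.4, 54.3, 53.8 and 51 with clone T, with 0.29 ± 0.065 as log2 fold change (SE; adjusted p by edgeR, 0.000385) on the mean of the clones. All 4 clone T libraries lay above mono-culture, and the clone K libraries overlapped with it.

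**Figure D2:**
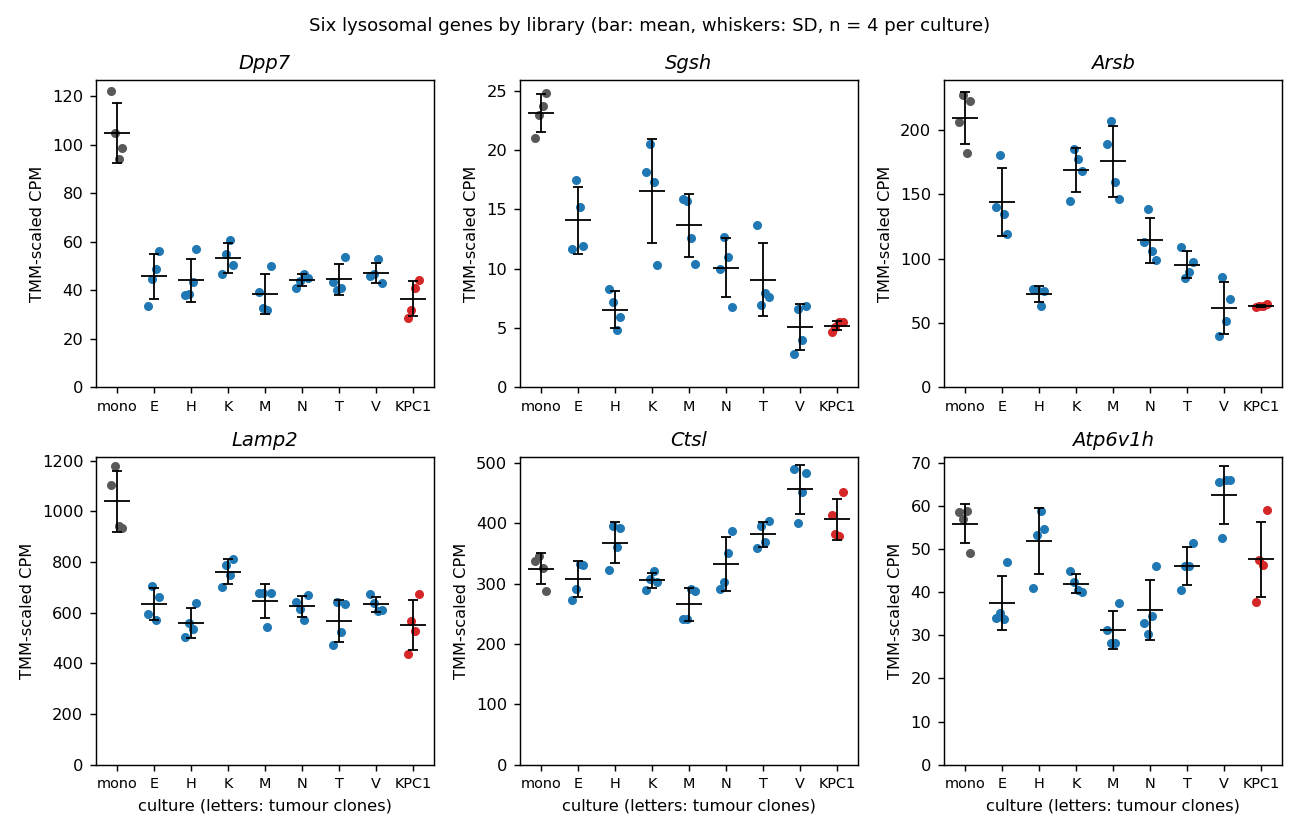
TMM-scaled CPM of 6 lysosomal genes (y axes, from 0) in each library of the 9 cultures (x axes); points are libraries, bars are means and whiskers are the SD of 4 libraries. Dpp7 and Lamp2 are lower with every line, Sgsh and Arsb are lowest with clones V and H and KPC1, and Ctsl and Atp6v1h range from below mono-culture with clone M to above it with clone V.

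Among the 8 lipid and phosphate hydrolases, their cofactors and the cholesterol exporters, 3 were lower (Ppt1, Psap and Npc2), 1 was higher (Lipa) and 4 did not pass the test. With 24.9% of all genes lower and 24.3% higher, the counts of this small group lay near the background. Ppt1 (chr4:122836242-122859175, plus strand), which removes fatty acids from proteins, was 141, 141, 125 and 125 CPM in mono-culture, 102, 123, 117 and 121 with clone K and 65, 63.1, 67.9 and 69.2 with KPC1. All co-culture libraries of Ppt1 lay below the mono-culture libraries, with -0.52 ± 0.073 as log2 fold change (SE; adjusted p by edgeR, 7.54e-07) on the mean of the clones. Psap, the precursor of the saposins that present glycolipids to the hydrolases, averaged 1904 ± 117 CPM without tumour cells and 1104 ± 125 CPM with KPC1. Lipa (chr19:34492318-34527474, minus strand), the acid lipase that releases cholesterol from its esters, was 134, 149, 144 and 134 CPM in mono-culture and 176, 202, 185 and 182 with clone N, and gave 0.23 ± 0.089 as log2 fold change (SE; adjusted p by edgeR, 0.0316) on the mean of the clones. This call for Lipa was lost without mono-culture replicate 1 or 4, at edgeR adjusted p = 0.121 and 0.108, and it also failed with no scaling beyond library size (0.101).

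Npc1 (chr18:12189692-12236400, minus strand), the membrane transporter that carries cholesterol out of the lysosome, differed among the lines more than any other gene of this group (edgeR adjusted p = 2.94e-07 among the 7 clones). Its CPM was 111, 109.8, 109 and 104 in mono-culture, 144, 158, 178 and 128 with clone H and 97.9, 101, 92.9 and 84.8 with clone K. The clone H libraries lay above all mono-culture libraries and the clone K libraries below, where the difference did not pass the test. Npc1 was higher with clone H (log2 fold change 0.48 ± 0.11), clone V (0.42 ± 0.11) and KPC1 (0.43 ± 0.11), and did not pass the test with the other lines. Its partner Npc2, the soluble cholesterol carrier of the lumen, was 431 ± 37.8 CPM in fibroblasts alone and 337 ± 46 CPM with clone V. Clone V was the one line with which Npc2 passed the test. Its means with the other lines were also below mono-culture, between 340 (clone H) and 396 CPM (clone N).

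All 8 membrane proteins, progranulin included, passed the test, 7 as lower and 1, Cln3, as higher (all genes 24.9% and 24.3%). Lamp2 (chrX:38401357-38456454, minus strand), a major glycoprotein of the lysosomal membrane and receptor of chaperone-mediated autophagy, was 1106, 1178, 942 and 935 CPM in mono-culture, 702, 788, 749 and 812 with clone K and 503, 559, 534 and 639.5 with clone H. The co-culture libraries did not overlap with mono-culture, and the mean of the clones gave -0.72 ± 0.081 as log2 fold change (SE; adjusted p by edgeR, 1.46e-08). Lamp1, its close relative, averaged 1555 ± 139 CPM in mono-culture and 868 to 1150.0 CPM in the co-cultures. Mcoln1, the calcium channel that signals from the lysosome and has 2 copies of the promoter motif, was lower with every line, with -0.65 ± 0.057 as log2 fold change (SE; adjusted p by edgeR, 9.91e-11) on the mean of the clones. The gene listed as 0610031J06Rik, named Glmp in GENCODE, a glycosylated lysosomal membrane protein, fell by 1.08 on the log2 scale with KPC1 and by 0.64 on the mean of the clones. Grn, progranulin, a secreted protein taken up into lysosomes, was 966 ± 51.3 CPM in mono-culture and 585 to 744 CPM in the co-cultures. Scarb2 (chr5:92441314-92506833, minus strand), the receptor that carries glucocerebrosidase to lysosomes, had the smallest p among the clones of these 8 genes (edgeR adjusted p = 4.82e-05). It was 59.8, 55.9, 54.1 and 55.5 CPM in mono-culture, 29.7, 31.6, 38.7 and 37.3 with clone N and 62.9, 76.1, 59.1 and 54.8 with clone M, so that all clone N libraries lay below mono-culture and those of clone M overlapped with it, at the highest mean of the co-cultures.

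The 3 members of the proton pump were lower on the mean of the clones (all genes 24.9%). Atp6v0d1 (chr8:105524465-105566047, minus strand), a subunit of the membrane sector, was 168, 165, 166 and 134 CPM in mono-culture, 85.4, 88.9, 87.2 and 91.2 with clone N and 111, 114, 110.3 and 118 with clone V, and no co-culture library reached mono-culture. The mean of the clones gave -0.68 ± 0.061 as log2 fold change (SE; adjusted p by edgeR, 1.64e-10). Atp6ap1, an accessory subunit, averaged 400.1 ± 27.4 CPM in mono-culture, 229.8 ± 24.2 with clone M and 344 ± 17.3 with clone V. Atp6v1h (chr1:5070018-5162529, plus strand), a regulatory subunit of the cytosolic sector, was 58.6, 56.9, 58.8 and 49.2 CPM in mono-culture, 31.2, 28.1, 28.1 and 37.5 with clone M and 65.6, 52.5, 66 and 66 with clone V. The clone M libraries all lay below mono-culture, and those of clone V overlapped with it and had the highest mean of the co-cultures. Its log2 fold change was -0.84 ± 0.14 with clone M and 0.16 ± 0.13 with clone V, where it did not pass the test, and it differed among the clones (edgeR adjusted p = 1.37e-06).

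Among the 7 clones, 34 of the 46 genes differed by the F-test (73.9%), close to the 67.5% of all genes tested. By role, 6 of 11 proteases, 14 of 16 glycosidases and sulfatases, 5 of 8 of the lipid group, 6 of 8 membrane proteins and all 3 pump members differed. Several genes that were lower with every line, Dpp7, Ctsa, Tpp1, Grn and Man2b1, were among the 12 that did not pass this test, which does not show that they were alike among clones. Summed over each role, glycosidases and sulfatases were lowest with clone V at 1267 ± 122 CPM (SD, n = 4), KPC1 at 1299 ± 31.2 and clone H at 1352 ± 57.4, against 2186 ± 139.5 in mono-culture. With clone K they summed to 1681 ± 104 CPM, and with clone M to 1607 ± 162. The proton pump members had another order of lines. Their sum was lowest with clone M at 356 ± 33.7 CPM and clone N at 357 ± 5.4, and highest among the co-cultures with clone V at 519.7 ± 21, against 614 ± 40.4 in mono-culture. The sum of membrane proteins and progranulin was highest with clone V at 3749 ± 149 CPM, followed by clone K at 3641 ± 196, against 4987 ± 415 in mono-culture. Single genes did not share this order. Cd63 averaged 982 CPM with clone V and 707 with clone K, and Grn, Scarb2, Mcoln1 and Cln3 were also higher with clone V. Lamp1, Lamp2 and 0610031J06Rik were lower with clone V (1075, 633 and 180 CPM) than with clone K (1150, 763 and 195). Sums were compared as levels only, without a test. Of the 46 genes, KPC1 had the lowest mean of the 8 co-cultures in 15 and the highest in 3. Clone M had the lowest in 11 and the highest in 6, clone V the lowest in 8 and the highest in 12, and clone K the lowest in 7 and the highest in 12.

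**Figure D3:**
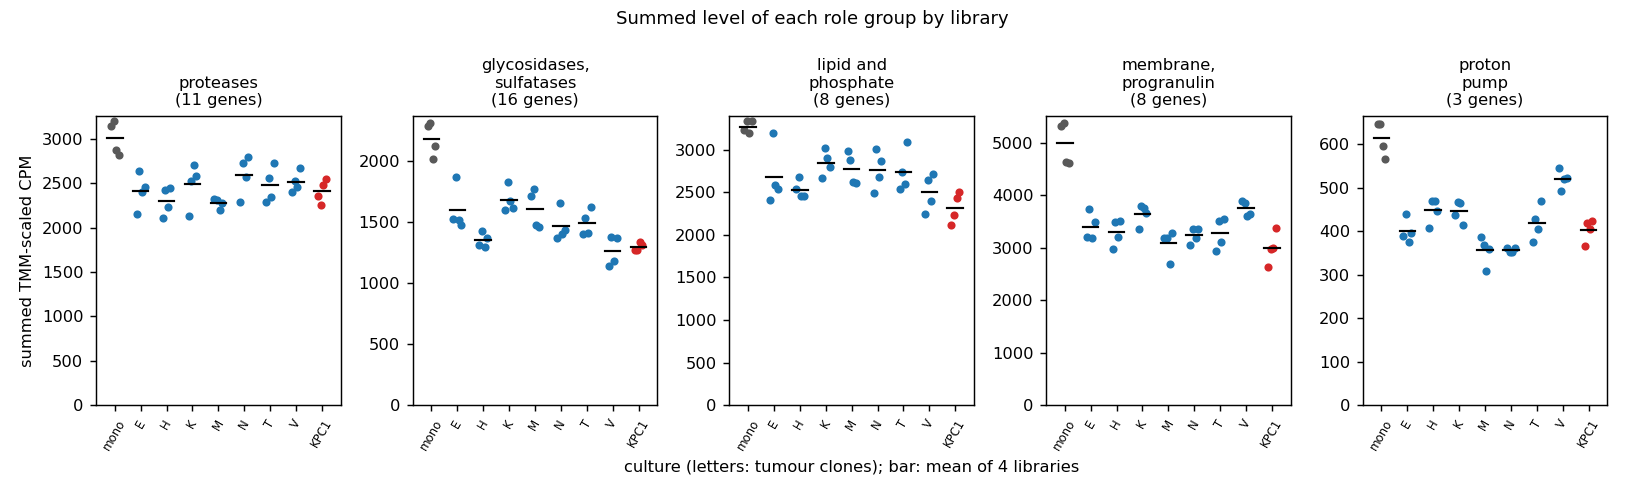
Summed TMM-scaled CPM (y axes, from 0) of the genes of each role in every library, by culture (x axes); bars are means of 4 libraries. In every role but the lipid group, all co-culture libraries lie below all 4 mono-culture libraries, narrowly so for the proteases (at most 2794 against at least 2823 CPM). In the lipid group a clone E library (3192 CPM) lies above the lowest mono-culture library (3189 CPM). Clone V is lowest in glycosidases and sulfatases, and highest of the co-cultures in membrane proteins and proton pump.

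Against the mean of the 7 clones, KPC1 had 16 lysosomal genes lower, 6 higher and 24 that did not pass the test, where 18.8% of all genes were lower and 22.3% higher. Without KPC1 replicate 1 or 2 the count of lower genes was 9 and 10. The median log2 fold change of the 46 genes was -0.08. The lowest was Sgsh, with -0.94 ± 0.20 as log2 fold change (SE; adjusted p by edgeR, 0.000435), followed by Arsb at -0.81 and Ids at -0.52. The 6 higher genes were Ctsh, Manba, Npc1, Ctsl, Glb1 and Ctsz. Ctsh, an aminopeptidase, had the largest difference at 0.74 ± 0.19 as log2 fold change (SE; adjusted p by edgeR, 0.00274). It was 40.9, 25.9, 37 and 48.4 CPM with KPC1, and its means with the clones lay between 16.9 (clone K) and 29.6 CPM (clone N). In mono-culture, which is not part of this comparison, it was 23.9, 22.3, 26.5 and 20 CPM.

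Cln3 (chr7:126571207-126585817, minus strand), which encodes a lysosomal membrane protein lost in a childhood neuronal storage disease, had the highest fold change of the 46 genes with every line. Its level was low, at 1.54, 1.1, 0.608 and 1.19 CPM in mono-culture, 13.5, 6.81, 10.6 and 10.4 with clone T and 1.51, 1.43, 6.24 and 4.86 with clone K. The clone T libraries all lay above mono-culture and those of clone K overlapped with it. The mean of the clones gave 2.14 ± 0.47 as log2 fold change (SE; adjusted p by edgeR, 0.000354), with the log2 fold change of single lines between 1.47 (clone H) and 3.19 (clone T). Within each co-culture, the library with the least of the keratin Krt18 also had the least Cln3. Between lines the order of the 2 differed. The keratin Krt18 was 0.0761 to 0.220 CPM in mono-culture, and within clone K the 2 libraries with 1.51 and 1.43 CPM of Cln3 held 23.5 and 9.3 CPM of Krt18, and those with 6.24 and 4.86 held 118 and 143. Within clone V, Cln3 of 1.83 and 1.49 CPM stood beside Krt18 of 17.2 and 14.9, and Cln3 of 5.61 and 8.02 beside Krt18 of 69.9 and 115. Within clone M, Cln3 of 1.40, 2.92, 5.67 and 9.17 CPM stood beside Krt18 of 23.4, 64.6, 130 and 238. Within clone H, Cln3 of 1.52, 2.34, 3.71 and 4.95 CPM stood beside Krt18 of 39.4, 81.5, 106 and 147. The clone N libraries held 206 to 325 CPM of Krt18 beside Cln3 of 3.76 to 5.90 CPM. In KPC1 replicate 2, Krt18 of 102 CPM stood beside Cln3 of 6.21. The part of epithelial transcripts in the rise of Cln3 was not tested.

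In an alternative added after the data were seen, only the 2 libraries of each co-culture with the lowest epithelial marker sum were kept. The log2 fold change of Cln3 then was 0.39 with clone K (edgeR adjusted p = 0.517), 0.56 with clone V (0.192), 0.76 with clone H (0.0853) and 0.92 with clone M (0.0908), none past the threshold. It still passed with clone T (2.94, edgeR adjusted p = 2.2e-06), KPC1 (2.44, 1.33e-05), clone E (2.31, 9.16e-05) and clone N (2.01, 0.000189). On the mean of the clones it was 1.41 and passed. With all libraries, the call for clone K was also lost without mono-culture replicate 2, 3 or 4 or clone K replicate 3 or 4, that for clone H without mono-culture replicate 2 or 3 or clone H replicate 3 or 4, and that for clone M without clone M replicate 3. On the mean of the clones, 32 of the 46 genes were lower and 2 higher with the reduced set, where 24.8% and 22.5% of all genes were, and these included all 31 that were lower with all libraries. With clone E 19 were lower (all genes 8.96%), each among the 27 of the full set, and with clone M 20 (all genes 5.82%), each among the 29 of the full set.

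**Figure D4:**
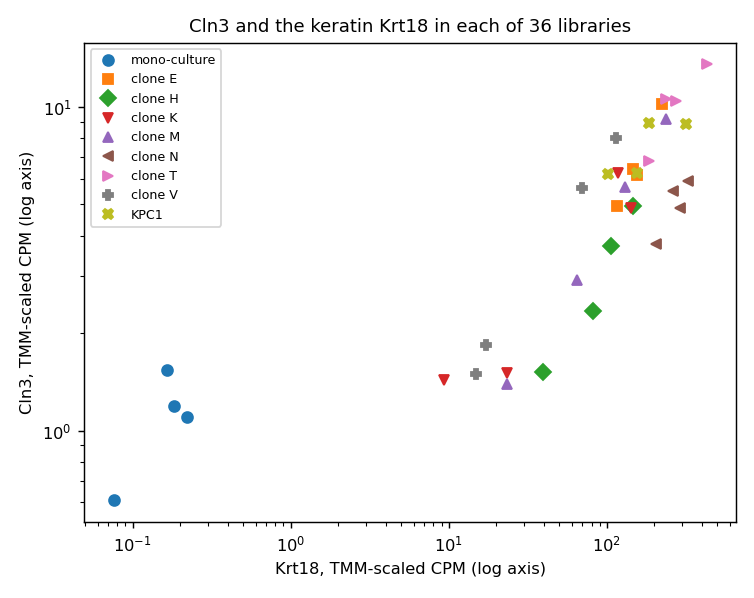
Cln3 (y axis) against the keratin Krt18 (x axis), both as TMM-scaled CPM on log axes, in each of the 36 libraries; symbols and colours mark the 9 cultures. The 4 mono-culture libraries lie at the lower left, co-culture libraries with Krt18 under 50 CPM have Cln3 of 1.40 to 1.83 CPM, and the clone T library with the most Krt18 (429 CPM) has the most Cln3 (13.5 CPM). The clone N libraries, with Krt18 of 206 to 325 CPM, have Cln3 of 3.76 to 5.90 CPM.

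Other lysosomal genes, outside the 46, were compared on the mean of the 7 clones against mono-culture, in lists written with earlier results of these data known. As above, 24.9% of all genes were lower and 24.3% higher in this comparison. Of 16 tested enzymes and cofactors, soluble except for the membrane enzyme Hgsnat, 11 were lower and 1 was higher. The highest was Ctsc, the dipeptidyl peptidase that activates serine proteases of immune cells, at 32.4 ± 2.28 CPM in fibroblasts alone and 141 ± 24.3 with clone V (log2 fold change 1.46, edgeR adjusted p = 2.11e-10), with all 28 clonal libraries above mono-culture. The lowest was Ctso, a cysteine protease (log2 fold change -0.96, edgeR adjusted p = 9.33e-08). Of 17 other membrane proteins, 10 were lower and 2 were higher, Cd68 and Mfsd8. Ctns, the cystine exporter, fell from 53.7 ± 5.33 CPM in mono-culture to 17.3 ± 3.46 with clone H (log2 fold change -1.26, edgeR adjusted p = 4.03e-11). Cd68 was 3.37 ± 1.1 CPM in mono-culture and 13 ± 1.67 with clone T (log2 fold change 1.01, edgeR adjusted p = 0.0249).

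Of 15 tested other subunits of the proton pump, 11 were lower and none was higher, so the 3 pump members above were not alone in their direction. The lowest was Atp6v0e2, at 5.09 ± 0.879 CPM in mono-culture and 0.746 ± 0.0567 with clone T (log2 fold change -2.09, edgeR adjusted p = 4.64e-09). With clone M 12 of the 15 were lower and none higher (all genes 10.8% and 12.2%). With clone V 4 were lower and 3 higher, near or below the shares of all genes (28.9% and 29.4%). Of 14 genes listed under mannose-6-phosphate tagging and protein sorting, not all of them particular to lysosomal enzymes, 8 were lower and 2, Gga3 and Mcfd2, were higher. Sort1, the sorting receptor sortilin, was 104 ± 9.81 CPM in mono-culture and between 30.5 and 51.0 CPM on average with the clones (log2 fold change -1.36, edgeR adjusted p = 7.04e-09).

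Of 17 tested genes of the TFEB family and of nutrient sensing at the lysosome, 8 were lower and 3, Tfeb, Mitf and Mtor, were higher, a share below that of all genes. Tfeb, the transcription factor that binds the promoter motif shown above, was 15.2 ± 1.9 CPM in mono-culture, 24.3 ± 2.54 with clone N and 15.3 ± 4.06 with clone V. On the mean of the clones its log2 fold change was 0.44 (edgeR adjusted p = 0.00169). Its protein was not measured, and a part of TFEB in the levels of the 46 genes was not tested. Rragb, a GTPase that recruits the mTORC1 kinase to lysosomes, was the lowest (log2 fold change -1.98, edgeR adjusted p = 1.48e-07), at 3.56 ± 0.368 CPM in mono-culture and means from 0.134 (clone V) to 2.28 CPM (clone K) with the clones. Of 5 tested inhibitors of cathepsins, 2 were lower, Serpinb1a (log2 fold change -2.07, edgeR adjusted p = 1.08e-07) and Cst6 (log2 fold change -0.82, edgeR adjusted p = 0.0301).

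**Figure D5:**
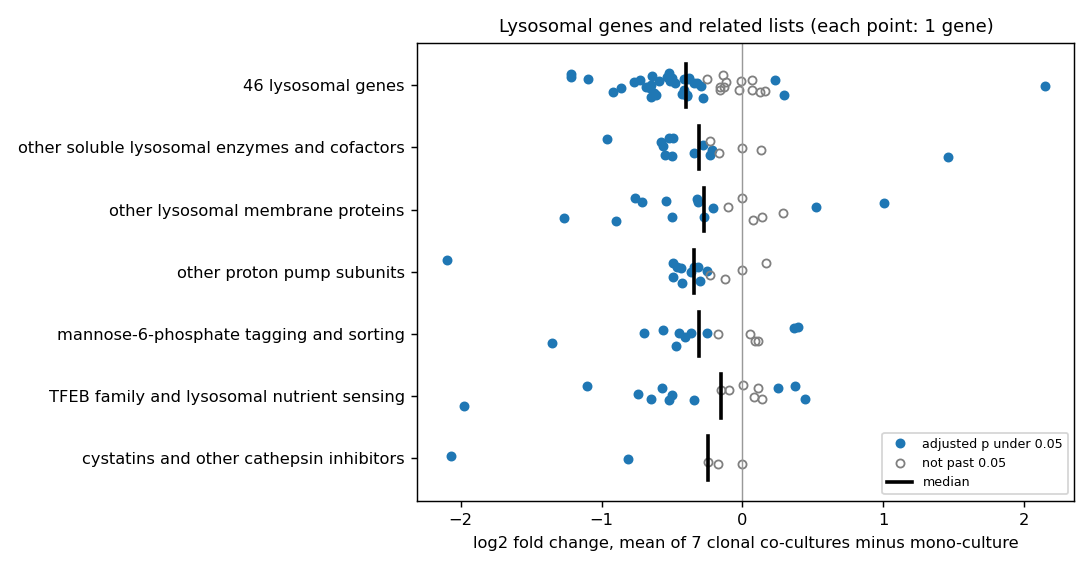
Log2 fold change on the mean of the 7 clonal co-cultures against mono-culture (x axis) for the 46 lysosomal genes and 6 related lists (rows); each point is a gene, filled where the edgeR adjusted p is under 0.05, and the black bar is the median. The medians of all 7 rows lie below 0, from -0.15 for the TFEB and nutrient-sensing list to -0.40 for the 46 genes.

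Per gene length, the 46 transcripts spanned a wide range in mono-culture. The highest RPKM (reads scaled to transcript length and library size) were those of Cd63, a tetraspanin of late endosomes, at 935 ± 91.2 (SD, n = 4), Psap at 748 ± 50.3 and Lamp1 at 728 ± 58. The lowest was Cln3, at 0.362 ± 0.129. Together the 46 genes took 1.47 ± 0.0720% of all counts in mono-culture (SD, n = 4, from 1.39% to 1.55%). With the clones the mean share lay between 0.974% (clone H) and 1.12% (clone K), and it was 0.922% with KPC1.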

How the data were processed

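Poly(A) RNA of 36 sorted fibroblast samples was sequenced from strand-specific libraries. The authors deposited raw read counts per gene (STAR, featureCounts, edgeR and mm10 are named in the submitters' processing notes, without roles or versions) and RPKM, which the authors made from those counts by scaling to gene length and library size. Whether counting used strand is not given in the sources used here. Counts were filtered with filterByExpr, scaled by TMM and fitted over all 9 groups with edgeR 4.0.16 (quasi-likelihood, robust; R 4.3.3), with Benjamini-Hochberg adjustment over 14439 genes and a threshold of 0.05. Levels within a gene are TMM-scaled CPM, and levels between genes RPKM. The members, lists and tests were chosen with earlier results of these data known. Genes were named where they had the lowest or highest fold change of their role on the mean of the clones or of all 46 with a line, or the smallest p of their role among the clones. Any other gene was named after its values were seen. Alternatives were other scalings, filters and thresholds, DESeq2 1.42.0, limma 3.58.1 on log2(RPKM + 1 or 0.1), a replicate block, fits on the compared libraries only, 36 fits leaving out 1 library, and 1 added after the data were seen. The fit was tested on simulated data. Coordinates are GENCODE's for GRCm38, matched by Ensembl ID.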

Additional observations from a re-analysis of the deposited data

Results flagged for a closer look

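Among the named genes, 10 of 144 sets of 4 libraries had a highest or lowest library far from the other 3 by Dixon's ratio (the gap to its neighbour over the range), where chance gives about 1 in 20, or 7.2 sets. In the proton pump, Atp6v0d1 in mono-culture had a ratio of 0.923, with replicate 4 at 133.8 CPM and the others at 165 to 168, and Atp6v0d1 with clone K 0.873, with replicate 1 at 105.8 CPM and the others at 114 to 115. Atp6v1h had a ratio of 0.906 with clone E (replicate 4 at 47.0 CPM, the others at 33.9 to 35.1) and of 0.969 with clone V (replicate 2 at 52.5 CPM, the others at 65.6 to 66.0). Lamp2 with clone M had a ratio of 0.976, with replicate 3 at 545 CPM and the others at 677 to 679.7.

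Npc1 was set apart in 3 cultures. The ratio was 0.832 with clone M (replicate 4 at 81.7 CPM, the others at 98.1 to 101), 0.839 with clone V (replicate 3 at 176 CPM, the others at 132 to 139) and 0.912 with KPC1 (replicate 4 at 119.8 CPM, the others at 153 to 157). Arsb with clone H had a ratio of 0.867, with replicate 3 at 63.5 CPM and the others at 74.8 to 76.6. Sgsh with clone T had a ratio of 0.851, with replicate 1 at 13.6 CPM and the others at 6.98 to 7.98.

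Ctsl was lower with clone M and higher with clones T and V than in mono-culture, and the difference among the 7 clones passed the F-test (edgeR adjusted p = 4.75e-07).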

How the results depend on the processing

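No median of the 46 genes changed direction, nor did any gene named for its fold change, in the comparison it was named for. The direction of other genes was not checked under the alternatives. Counts of lower genes stayed within 1.5 times the reported ones in every fit against mono-culture, at 30 to 35 of the 46 genes on the mean of the clones over all alternatives. Against the mean of the clones, 16 genes were lower with KPC1, 10 with no filter, 10 with the 2 libraries per co-culture of lowest epithelial marker sum, and 9 to 17 when 1 library was left out. The small counts of higher genes moved more. For clone E (2 reported) they were 4 at an adjusted p of 0.1, 1 with at least 10 counts in every library, 4 on only the libraries compared, 4 with the replicate block and 1 with the lowest-epithelial libraries. For clone K (1, Cln3) they were 0 with no filter, with at least 10 counts, with limma on RPKM at either pseudocount and with the lowest-epithelial libraries, and 0 to 1 leaving out 1 library. For clone M (2) they were 4 at 0.1, 1 with at least 10 counts, 4 on only the libraries compared, 0 with the lowest-epithelial libraries and 1 to 2 leaving out 1 library (1 without mono-culture replicate 1 or 4 or clone M replicate 1, 2 or 3). With at least 10 counts, which removes Cln3, they were 2 for clone T (4) and 3 for clone V (5), and with the lowest-epithelial libraries 3 for clone V and 1 for clone N (3). Other causes were not tested. Replicate numbers were not treated as pairs, since no label states what they share and same-numbered deviations did not all correlate over 0.1 (68 of 144 pairs did, r -0.58 to 0.69). Between co-cultures 63 of 112 pairs did (median 0.14), between mono-culture and co-cultures 5 of 32 (median -0.023), and 24 of 36 libraries correlated best with their own number, a hint of pairing among co-cultures from the data. With the replicate block 31 genes were lower and 3 higher on the mean of the clones. Low counts limit Cln3 most.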
